A study of Mus musculus with 4 samples.

Results

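The Hox cluster genes are the genes of the Hoxa, Hoxb, Hoxc and Hoxd clusters, and every symbol made of Hoxa, Hoxb, Hoxc or Hoxd and a paralog number from 1 to 13 was taken as a member. This rule used no expression value and gave 39 of the 56980 genes in the matrices. There were 11 members in Hoxa, 10 in Hoxb, 9 in Hoxc and 9 in Hoxd. In GRCm39 (GENCODE positions) Hoxa lies on the minus strand of chromosome 6 from 52132570 to 52237822, and Hoxb lies on the plus strand of chromosome 11 from 96085106 to 96259082. Hoxc lies on the plus strand of chromosome 15 from 102829538 to 102945278, and Hoxd on the plus strand of chromosome 2 from 74498654 to 74595486.

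Hox genes encode homeodomain transcription factors whose order along the chromosome follows their order of expression along the body axis, from the head end (low paralog numbers) to the tail end (high paralog numbers). They bind DNA with cofactors of the TALE family (Pbx, Meis and Pknox proteins), and their on and off states are held by Trithorax and Polycomb proteins. In skin, fibroblasts of different body sites are known to keep distinct Hox codes, and epidermal cells express Hox genes as well.

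Single-cell RNA-seq was performed on dorsal skin cells of mouse embryos at E16.5 per the labels, sorted for Epcam, an epithelial surface protein, and α6 integrin, a protein of cells touching the basement membrane. In both groups Suv39h1 and Setdb1 were floxed (f/f) and Suv39h2 was deleted in every cell (Suv39h2-/-). The 2 Ctrl libraries lacked K14CreERT2 and the 2 TKO libraries had it. All 4 received tamoxifen, and each library came from 1 embryo. The products of these genes are histone methyltransferases for H3K9me3, a mark found on silenced chromatin. Since Suv39h2 was deleted in Ctrl as well, the comparison is of Suv39h1 and Setdb1 loss on that background. The K14 promoter is active in basal keratinocytes, whose progeny inherit the deletions, and not in fibroblasts or immune cells. The study describes the recombination as mosaic.

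Libraries held 70749496 to 89655247 unique molecular identifiers (UMIs, each marking 1 captured RNA molecule), and 10764 cells were used. Cells were grouped by markers into keratinocytes (2843 and 2989 cells in Ctrl 1 and Ctrl 2, 1560 and 1792 in TKO 1 and TKO 2), within these basal-like, differentiating-like, hair follicle-like and Merkel-like cells, and into fibroblast-like (104 to 180 cells per library) and immune-like cells. In keratinocytes Setdb1 stood at 68.0 and 58.2 UMIs counted per 1e6 UMIs of the class (CPM) in Ctrl and at 39.5 and 42.5 CPM in TKO, and it fell in TKO by 0.64 on the log2 scale (adjusted p = 0.0471). Suv39h1 stood at 24.4 and 25.3 CPM in Ctrl and at 24.9 and 19.995 CPM in TKO, and Suv39h2, deleted in both groups, still gave tags at 14.1 and 17.1 CPM in Ctrl and at 22.6 and 16.01 CPM in TKO. The 3' tags of these genes need not lie in the deleted part, so they check nothing. TKO cells of the Merkel-like class held no UMI of the Merkel genes Atoh1, Isl1, Insm1 or Krt20, so that class was not compared between genotypes. The fibroblast-like cells of TKO 1 had 447.8 CPM summed over 7 immune markers, against 4.09 to 17.7 CPM in the other libraries. There 6 erythroid markers, all detected, summed to 25.02 and 29.3 CPM in Ctrl and to 4817 and 15878 CPM in TKO. They also stood apart in the basal-like cells of Ctrl 2 (462 CPM, against 16.04 to 35.5 CPM) and the hair follicle-like cells of TKO 2 (330 CPM, against 12.4 to 20.3 CPM), and their part in the Hox levels was not tested.

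A level here is a gene's CPM in a class of 1 library. A captured transcript is counted once, at its 3' end, and levels were not divided by gene length. Whether intronic reads were counted is not given in the sources used here, and many members share stretches with another gene, so an order of levels between members is a description only. A difference is a log2 change of TKO over Ctrl with its standard error (SE), from edgeR's quasi-likelihood test on the summed UMIs of 2 Ctrl and 2 TKO libraries, with Benjamini-Hochberg adjustment over all genes tested, and a gene was called at an adjusted p under 0.05. With 2 libraries per group, an exact two-sided permutation test of a single value cannot go below p = 0.3333 and was not used. A lower level in a class can mean fewer expressing cells or less RNA per cell, and summed counts do not tell these apart.

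Keratinocytes expressed a broad but uneven set of Hox genes. Of the 39 members, 34 had a UMI in keratinocytes, 95803 UMIs in all, and Hoxa11, Hoxa13, Hoxb13, Hoxd12 and Hoxd13 had none. The Hoxb cluster stood at 164 and 171 CPM in Ctrl and at 158 and 150 CPM in TKO. The Hoxa cluster was nearly as high, with 150 and 158 CPM in Ctrl, and its TKO libraries lay on either side of these at 187 and 121 CPM. Hoxc summed to 78.5 and 94.8 CPM in Ctrl and to 104 and 76.8 CPM in TKO. Hoxd was the lowest cluster in all 4 libraries, with 12.6 and 7.31 CPM in Ctrl and 14.1 and 8.50 CPM in TKO. The groups overlapped for Hoxa, Hoxc and Hoxd, and only for Hoxb did both TKO libraries lie below both Ctrl libraries. Over all 39 members the sums were 405 and 431 CPM in Ctrl and 463 and 356 CPM in TKO.

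By paralog number, the signal summed over the clusters lay mostly in the centre, though the highest Hoxb member in keratinocytes was Hoxb2. Paralogs 4 to 8 held 70.1 to 75.7% of all Hox UMIs in the keratinocytes of each library, paralogs 1 to 3 held 18.5 to 24.0%, paralog 9 held 2.30 to 4.43%, and paralogs 10 to 13 held 1.82 to 3.64%. Most of the last share was Hoxc13, a gene required for hair keratin expression. Paralogs 4 to 8 held most of the Hox UMIs in basal-like, differentiating-like and hair follicle-like cells as well. Paralogs 10 to 13 held 7.11 and 7.69% in the hair follicle-like cells of Ctrl and 1.24 and 6.09% in those of TKO, against 1.10 to 2.51% in basal-like cells.

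**Figure D1:**
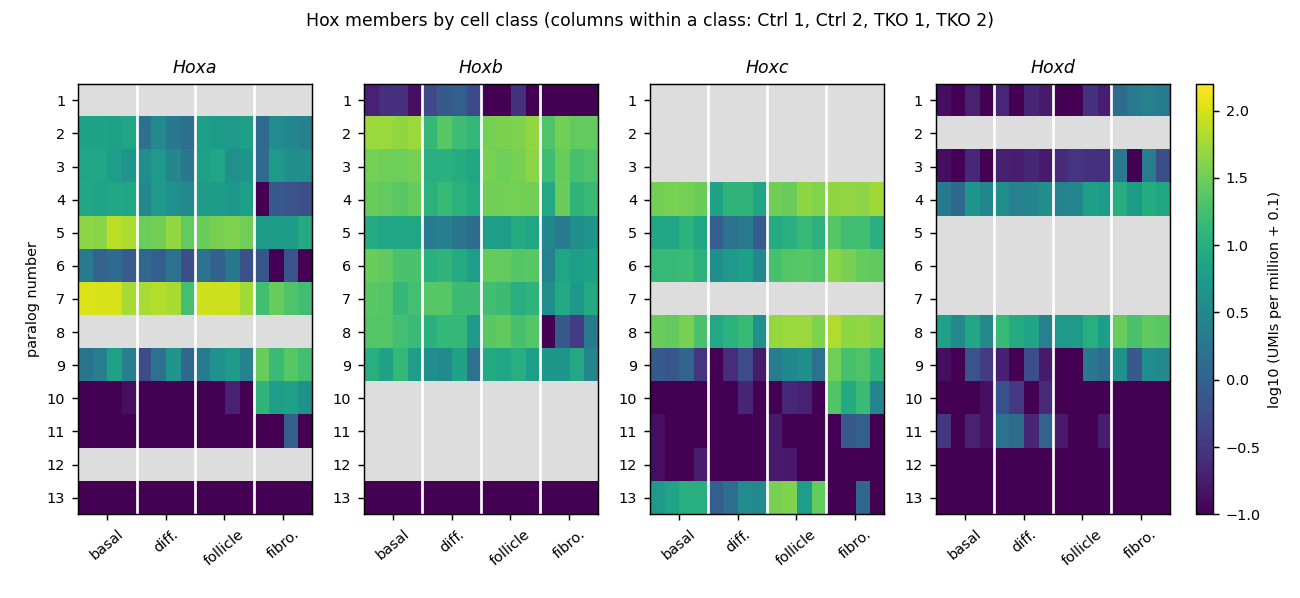
Heat map of log10(CPM + 0.1) for Hox members. Each panel is a cluster, rows are paralog numbers 1 to 13, and columns are Ctrl 1, Ctrl 2, TKO 1 and TKO 2 within basal-like, differentiating-like, hair follicle-like and fibroblast-like cells; grey cells hold no value shown here. Over the clusters together the central paralogs hold most of the keratinocyte signal, though Hoxb2 is the highest Hoxb member in keratinocytes as a whole. Paralogs 9 and 10 of Hoxa and Hoxc are higher in the fibroblast-like columns.

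Classes of keratinocytes differed in Hox level. The 39 members summed to 493 and 466 CPM in basal-like Ctrl cells and to 508 and 423 CPM in basal-like TKO cells. Hair follicle-like cells had 489 and 498 CPM in Ctrl and 496 and 461 CPM in TKO, and differentiating-like cells had 231 and 271 CPM in Ctrl and 260 and 143 CPM in TKO. Differentiating-like cells were thus the lowest of these classes in each library, and TKO 2 was the lowest among them. Of 23 members with a mean of at least 1 CPM, 19 were higher in basal-like than in differentiating-like cells of the same library in all 4 libraries (82.6%, against 47.1% of all genes), and none was lower in all 4 (26.8% of all genes). Hoxc4 was 2.79 to 4.86 times higher in basal-like cells, and Hoxb2, a hindbrain patterning gene, was 2.24 to 3.98 times higher. Hoxb7 was the even member, at 0.868 to 1.15 times. Hoxd8 went the other way in Ctrl, at 0.448 and 0.335 times, and stood at 1.10 and 1.29 times in TKO. Hoxd4 went the other way in Ctrl too, at 0.527 and 0.498 times, and stood at 1.84 and 0.794 times in TKO.

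Hair follicle-like cells had another mix of members than basal-like cells, with a larger Hoxc share. Of 24 members, 8 were higher in hair follicle-like cells in all 4 libraries (33.3%, against 40.5% of all genes), among them Hoxc5, Hoxc6, Hoxc8 and Hoxc9, and 7 were lower in all 4 (29.2%, against 18.8%), among them Hoxa2, Hoxa4, Hoxa5 and Hoxa7. The Hoxc cluster made up 29.1 to 31.4% of Hox UMIs in hair follicle-like cells and 18.3 to 20.9% in basal-like cells. The 8 fibroblast markers, all detected, summed to 1663 to 1948 CPM in hair follicle-like and 926 to 1583 CPM in basal-like cells (37110 to 47635 CPM in fibroblast-like cells), and their part in the Hoxc share was not tested. In the Ctrl cells of the Merkel-like class (33 and 23 cells) the members summed to 432 and 452 CPM, and Hoxb made up 50.2 and 52.9% of that.

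Fibroblast-like cells expressed Hox genes at a total close to that of keratinocytes, 405 and 381 CPM in Ctrl and 366 and 327 CPM in TKO, but with other members. Of 26 members with a mean of at least 1 CPM, 12 were higher in keratinocytes in all 4 libraries (46.2%, against 36.3% of all genes) and 11 were higher in fibroblast-like cells (42.3%, against 32.2%). The 12 included Hoxa2, Hoxa4, Hoxa5 and Hoxa7, Hoxb2, Hoxb5, Hoxb6, Hoxb7, Hoxb8 and Hoxb9, and Hoxc13. The 11 were Hoxa9 and Hoxa10, Hoxc4, Hoxc5, Hoxc6, Hoxc8, Hoxc9 and Hoxc10, and Hoxd4, Hoxd8 and Hoxd9. Hoxc10, a gene of lumbar and hindlimb levels, had 35, 13, 55 and 6 UMIs in the fibroblast-like cells of Ctrl 1, Ctrl 2, TKO 1 and TKO 2 and 0, 2, 2 and 0 UMIs among the far more numerous keratinocytes. Hoxa10 had 20, 9, 24 and 9 UMIs in fibroblast-like cells and 0, 0, 1 and 4 in keratinocytes. Immune-like cells were nearly free of Hox RNA, with 30.3 and 12.025 CPM in Ctrl and 9.56 and 5.84 CPM in TKO over all members.

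**Figure D2:**
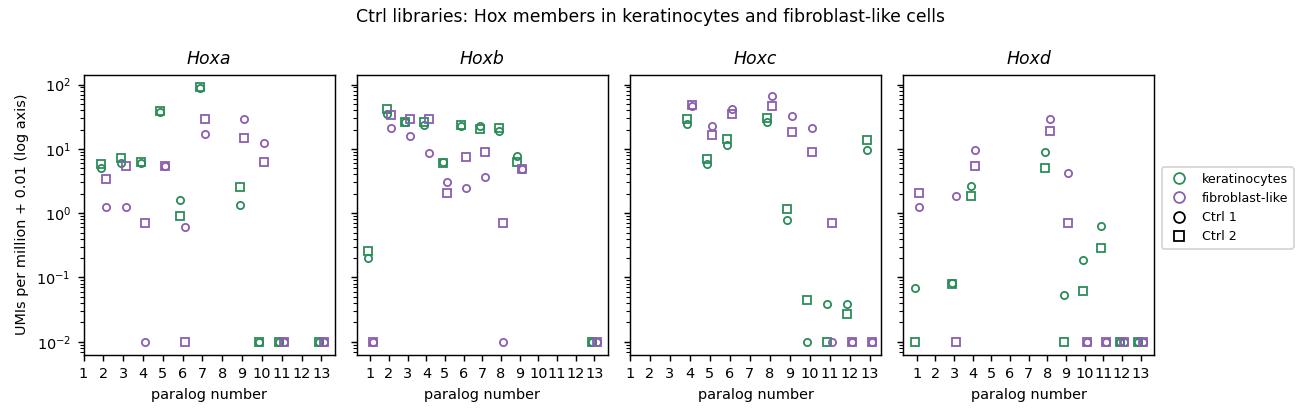
Levels (CPM + 0.01, log axis) of Hox members by paralog number in the Ctrl libraries, for keratinocytes (green) and fibroblast-like cells (purple); circles are Ctrl 1 and squares Ctrl 2, and the points at the floor of the axis are at 0 UMIs. Paralogs 5 and 7 of Hoxa are higher in keratinocytes, and paralogs 9 and 10 of Hoxa and Hoxc are higher in fibroblast-like cells.

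At an equal depth of 5000 UMIs per cell, a keratinocyte showed on average 1.79 and 1.89 members in Ctrl and 1.96 and 1.56 in TKO, and 79.9, 84.4, 85.4 and 75.2% of cells showed at least 1 (Ctrl 1, Ctrl 2, TKO 1, TKO 2). Without thinning these means were 5.62, 5.16, 7.43 and 5.92 members, with median depths of 21966, 17329, 30069 and 28068 UMIs. Immune-like cells, which served as the level free RNA can give, showed at least 1 member in 6.02, 5.65, 3.55 and 2.39% of thinned cells, with median depths of 14454 to 20086 UMIs. In differentiating-like cells TKO 2 stood apart, with a mean of 0.620 members against 1.05, 1.28 and 1.14 in the other libraries.

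Between genotypes, few Hox genes passed the test. In keratinocytes as a whole 1 of 27 members tested was called, Hoxd9, which was raised, beside 6.75% of all genes. With each cell thinned to 5000 UMIs the single member called was Hoxd4 instead (1 of 24, beside 6.02% of all genes). In basal-like cells 2 of 24 were called (12.7% of all genes), Hoxa5 raised and Hoxb6 lowered. In hair follicle-like cells 3 of 25 were called (13.6%), with Hoxd9, Hoxd4 and Hoxc4 raised. Hoxd9 entered both of its tests through the TKO libraries alone, so its calls describe where it was high and add no support. None of 24 was called in differentiating-like cells (1.33%), where 5 had an unadjusted p under 0.05, and none of 17 in fibroblast-like cells (0.0174%), where 1 had an unadjusted p under 0.05. DESeq2 called 5 of 27 members in keratinocytes (13.3% of all genes), 3 of 24 in basal-like cells (15.2%), 0 of 24 in differentiating-like cells (5.04%), 2 of 25 in hair follicle-like cells (12.1%) and 0 of 17 in fibroblast-like cells (0.0956%). In keratinocytes these were Hoxd9, Hoxd4 and Hoxa5, raised, and Hoxb6 and Hoxb7, lowered. By edgeR the share of members called was below that of all genes in each of these 5 comparisons, but this order depended on the filter, the tool and the handling of cells. With no expression filter the members' share was above that of all genes in keratinocytes (2.94 against 2.70%), basal-like (27.3 against 12.8%), differentiating-like (16.1 against 6.98%) and hair follicle-like cells (15.2 against 12.2%). With DESeq2 it was above in keratinocytes (18.5 against 13.3%). In basal-like cells it was above with doublets kept (16 against 14.9%) and with each cell thinned to 5000 UMIs (9.09 against 8.74%). The median log2 difference of the members tested was 0.04 in keratinocytes (all genes -0.02), -0.05 in basal-like cells (-0.02) and 0.11 in hair follicle-like cells (-0.01). In fibroblast-like cells it was -0.21 (all genes -0.01), with 11 of 17 members negative. In differentiating-like cells it was -0.34 (all genes -0.01), with 19 of 24 members negative, though no member passed the test. That median moved with single libraries, being -0.50 without Ctrl 1, -0.21 without Ctrl 2, -0.61 without TKO 1 and -0.22 without TKO 2, where 14 of 25 members were negative. Leaving out 1 library moved the other medians to between -0.08 and 0.16 in keratinocytes, -0.09 and 0.06 in basal-like cells, 0.08 and 0.21 in hair follicle-like cells and -0.36 and -0.05 in fibroblast-like cells. With each cell thinned to 5000 UMIs the median was -0.09 in keratinocytes (15 of 24 members negative) and -0.12 in hair follicle-like cells, where it was -0.02 with doublets kept, and in basal-like cells it was 0.02 at Leiden resolution 0.5, so the sign of these 3 medians was not stable.

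The classes were made of unequal parts in the 2 groups. Among hair follicle-like cells, the cluster led by Plcl1, Zfpm2 and Tgfb2 held 28.5 and 32.9% of Ctrl cells but 13.9 and 12.9% of TKO cells, whereas the cluster led by Lhx2, Nrp2 and Tgfb2 held 28.5 and 25.1% in Ctrl and 45.2 and 38.6% in TKO. The remaining cluster, led by Lhx2, Tll1 and Shh, held 40.8 to 48.5% in every library. In the clustering of all cells, 1 keratinocyte cluster was mostly of TKO, with 9, 8, 175 and 134 cells, and was led by 1700030N03Rik, Acta2 and Tagln. It gave 9.86 and 2.97% of the hair follicle-like and 8.57 and 7.87% of the basal-like cells of TKO, against 0 and 0% and 0.357 and 0% of those of Ctrl. Values by cluster stand beside the members called in a class and Hoxc13 below, and the part of these shifts in the differences was not tested.

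**Figure D3:**
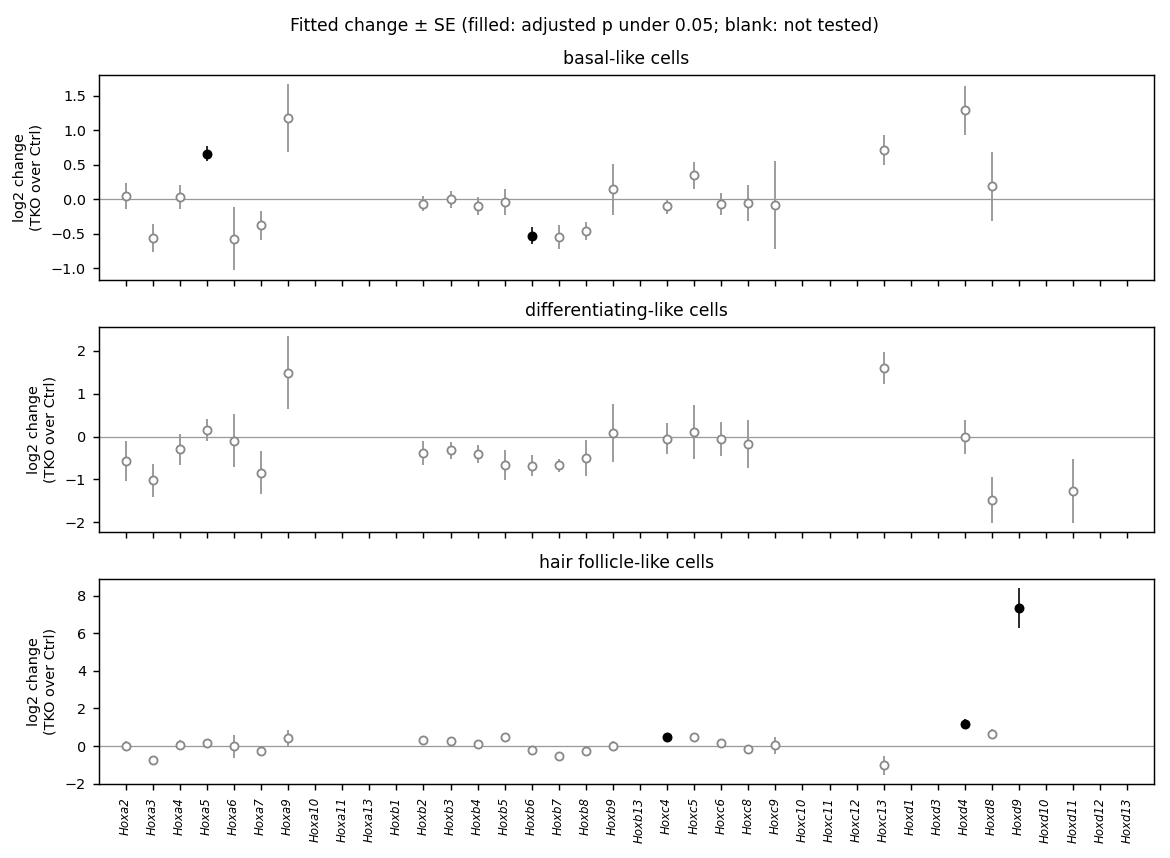
Fitted log2 difference of TKO over Ctrl for Hox members in basal-like, differentiating-like and hair follicle-like cells, from 2 libraries per group; vertical lines are ± SE, filled points have an adjusted p under 0.05, and members not tested are left blank. The Hoxd9 point in hair follicle-like cells, at 7.35, is set against Ctrl libraries at 0 UMIs and depends on the prior count; the counts give a TKO level at least 15.1-fold higher.

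Hoxd9, a gene of lumbar and limb patterning (ENSMUSG00000043342, chromosome 2, 74528008 to 74530552), was rare in keratinocytes but nearly absent from Ctrl. Keratinocytes of Ctrl 1, Ctrl 2, TKO 1 and TKO 2 held 3, 0, 45 and 28 of its UMIs, which are levels of 0.0440, 0, 0.862 and 0.516 CPM. Both TKO libraries lay above both Ctrl libraries. Over the summed libraries the TKO level was 28.7 times the Ctrl level, with a 95% interval of 9.45 to 142 that covers counting error only, and the fitted log2 difference was 4.72 ± 0.81 (SE, adjusted p = 0.0334). It passed the expression filter through its TKO libraries alone, so this value is a description. The call was lost without Ctrl 1, Ctrl 2 or TKO 1 (adjusted p of 0.0671, 0.204 and 0.0658) and kept without TKO 2 (0.0158). Hair follicle-like cells of these libraries held 0, 0, 19 and 15, at least 15.1-fold higher in TKO against a floor of 3 counts over the group. There the fitted difference was 7.35 ± 1.04 (adjusted p = 0.00746), a value that depends on the prior count, and again only the TKO libraries carried it past the filter. Among the alternative settings Hoxd9 was called in 6 there. It was not among the members called with each cell thinned to 5000 UMIs, with doublets kept or at Leiden resolution 0.5. Of the TKO UMIs in that class, 16 and 13 lay in the cluster led by Lhx2, Nrp2 and Tgfb2, 3 and 2 in that led by Lhx2, Tll1 and Shh, and none in that led by Plcl1. The cells of the mostly TKO cluster, 29 and 12 in number, held 8 of the 19 and 8 of the 15.

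Basal-like cells held 1, 0, 18 and 7 Hoxd9 UMIs (Ctrl 1, Ctrl 2, TKO 1, TKO 2) and differentiating-like cells 2, 0, 4 and 1, and in neither class did it pass the expression filter in the main setting. In basal-like cells it was called with doublets kept, with at least 3000 genes per cell, at Leiden resolution 0.5 and with no expression filter. The class in which Hoxd9 was called thus depended on the settings. Fibroblast-like cells held 7, 1, 13 and 7, with overlapping levels of 4.27, 0.681, 3.58 and 3.32 CPM. The keratinocyte level of Hoxd9 was 1.03 and 0% of the fibroblast-like level in Ctrl and 24.1 and 15.6% in TKO. The summed level of 8 fibroblast markers, all 8 detected, was 2.86 and 2.79% of the fibroblast-like level in Ctrl keratinocytes and 2.78 and 2.26% in TKO keratinocytes. The part of fibroblast RNA in the Hoxd9 levels was not tested. The difference of differences, fibroblast-like cells minus keratinocytes, was -4.24 ± 1.30 on the log2 scale and did not pass (adjusted p = 0.319). In that test edgeR called 0 of 29 members (0.589% of all genes), with 3 at an unadjusted p under 0.05. Among single cells, 3 of 2843 and 0 of 2989 Ctrl keratinocytes held a Hoxd9 UMI, against 37 of 1560 and 19 of 1792 TKO keratinocytes. At 5000 UMIs per cell these were 0 of 2820, 0 of 2951, 5 of 1556 and 2 of 1785, where 0 cells allow a share of up to 0.106% and 0.102% in Ctrl by a floor of 3 counts (exact 95% upper limits 0.131 and 0.125%). The TKO 1 share was 0.321% (95% exact interval 0.104 to 0.748%) and the TKO 2 share 0.112% (0.0136 to 0.404%). These limits cover counting error over the cells of 1 library each and are no test between genotypes. No immune-like cell held one in any library, at either depth.

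Hoxd4, a gene of cervical and hindbrain patterning (ENSMUSG00000101174, chromosome 2, 74542273 to 74559523), was raised in hair follicle-like cells. Its levels there were 2.56 and 2.85 CPM in Ctrl (2.71 ± 0.204, SD, n = 2) and 6.55 and 5.53 CPM in TKO (6.04 ± 0.721, SD, n = 2), from 36 to 66 UMIs per library. The groups did not overlap, and the fitted difference was 1.20 ± 0.26 (adjusted p = 0.0239). In basal-like cells the levels were 1.97 and 1.18 CPM in Ctrl and 4.76 and 2.99 CPM in TKO, with a difference of 1.29 ± 0.36 that missed the threshold (adjusted p = 0.0609) and passed it with DESeq2 (0.0345). Differentiating-like cells overlapped, with 3.73 and 2.38 CPM in Ctrl and 2.59 and 3.77 CPM in TKO. Without Ctrl 1, Ctrl 2 or TKO 1 the hair follicle-like call was lost (highest adjusted p 0.104). By cluster, the TKO levels lay above the Ctrl levels in each of the 3 hair follicle-like clusters, at 2.71 and 3.88 against 8.30 and 7.33 CPM (Lhx2, Tll1, Shh), 2.61 and 1.88 against 5.67 and 3.92 CPM (Lhx2, Nrp2) and 2.27 and 2.64 against 5.93 and 6.15 CPM (Plcl1), from 7 to 33 UMIs each. Hoxd4 overlaps Hoxd3 and Mir10b on its own strand, so reads in shared stretches cannot be assigned with certainty.

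Hoxa5, known for its part in lung and cervicothoracic development (ENSMUSG00000038253, chromosome 6, 52178734 to 52181567), was raised in basal-like cells. Its levels there were 45.8 and 42.6 CPM in Ctrl (44.2 ± 2.27, SD, n = 2) and 75.9 and 64.1 CPM in TKO (70.0 ± 8.30, SD, n = 2), and the groups did not overlap. The fitted difference was 0.66 ± 0.11 (adjusted p = 0.0163), lost without Ctrl 1 or Ctrl 2 (0.0896 and 0.103). Hair follicle-like cells overlapped, with 29.6 and 34.7 CPM in Ctrl and 37.5 and 31.5 CPM in TKO. The difference of differences between these classes was -0.48 ± 0.12 and did not pass (adjusted p = 0.0810). Hoxa5 shares a stretch of its strand with Hoxa3, which had keratinocyte levels of 6.11 and 7.28 CPM in Ctrl and 4.94 and 3.74 CPM in TKO and was not called (adjusted p = 0.141). By cluster, Hoxa5 was higher in both TKO libraries than in both Ctrl libraries in 6 of 7 basal-like clusters. In the cluster led by Anln, Neil3 and Efcab11 the groups overlapped, at 24.2 and 32.9 CPM in Ctrl and 33.4 and 31.9 CPM in TKO.

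Hoxb6, a gene of the thoracic level (ENSMUSG00000000690, chromosome 11, 96183280 to 96192395), was lowered in basal-like cells. The levels were 29.2 and 26.2 CPM in Ctrl (27.7 ± 2.12, SD, n = 2) and 19.2 and 19.2 CPM in TKO (19.2 ± 0.0575, SD, n = 2). Its fitted difference was -0.53 ± 0.12 (adjusted p = 0.0378), and the call was lost without Ctrl 1, Ctrl 2 or TKO 1 (highest adjusted p 0.259) and when each cell was thinned to 5000 UMIs. By cluster, both TKO libraries lay below both Ctrl libraries in 4 of 7 basal-like clusters, and the groups overlapped in 3. In the cluster led by Cenpf, Hmmr and Cdc20 Hoxb6 stood at 57.3 and 61.4 CPM in Ctrl and 31.0 and 29.6 CPM in TKO. In the one led by Cxcl10, ENSMUSG00000121137 and Klf2, which held 12.6 and 29.8% of the basal-like cells of Ctrl and 17.6 and 7.43% of those of TKO, it stood at 18.5 and 15.4 CPM in Ctrl and 13.1 and 21.5 CPM in TKO. In a dividing cluster led by Ube2c and Cxcl10 it stood at 18.1 and 12.9 CPM in Ctrl and 18.0 and 21.6 CPM in TKO. Its neighbours Hoxb7 and Hoxb8 had TKO levels below Ctrl levels in basal-like cells as well, and neither was called (adjusted p of 0.0906 and 0.0644). Hoxb7 stood at 23.8 and 21.8 CPM in Ctrl and at 13.5 and 17.6 CPM in TKO there. In differentiating-like cells it stood at 23.5 and 23.1 CPM in Ctrl and 15.5 and 15.3 CPM in TKO. In hair follicle-like cells it stood at 17.1 and 15.5 CPM in Ctrl and 9.92 and 12.01 CPM in TKO. It was called in neither class (adjusted p of 0.106 and 0.103).

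Hoxc4, a gene of the neck and upper trunk (ENSMUSG00000075394, chromosome 15, 102927366 to 102945278), differed in its genotype effect between classes. In hair follicle-like cells its levels were 32.1 and 29.7 CPM in Ctrl (30.9 ± 1.72, SD, n = 2) and 45.2 and 39.2 CPM in TKO (42.2 ± 4.19, SD, n = 2), a difference of 0.50 ± 0.13 (adjusted p = 0.0406). In basal-like cells the levels were 33.2 and 35.6 CPM in Ctrl and 33.5 and 30.6 CPM in TKO. The difference of differences, hair follicle-like minus basal-like, was 0.63 ± 0.12 (adjusted p = 0.0269), the single member called of 25 (3.25% of all genes). The first call was lost in 6 of 9 alternative settings (adjusted p up to 0.304) and the second in 6 of 7 (up to 0.260), and without Ctrl 1 or Ctrl 2 both were lost. Without TKO 1 the first was lost as well. By cluster, Hoxc4 stood at 37.4 and 34.9 CPM in Ctrl and 46.1 and 40.4 CPM in TKO in the cluster led by Lhx2, Tll1 and Shh. In the one led by Lhx2 and Nrp2 it stood at 30.2 and 31.4 CPM in Ctrl and 48.0 and 43.0 CPM in TKO. The groups overlapped in the cluster led by Plcl1, with 27.2 and 21.6 CPM in Ctrl and 28.8 and 21.2 CPM in TKO. The corresponding test between differentiating-like and basal-like cells called none of 27 members (0.272% of all genes, 5 members at an unadjusted p under 0.05), the lowest adjusted p being 0.0704 for Hoxd8.

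Hoxc13 (ENSMUSG00000001655, chromosome 15, 102829538 to 102837249) had 34.5 and 38.1 CPM in the hair follicle-like cells of Ctrl and 5.95 and 28.0 CPM in those of TKO, from 485, 561, 60 and 324 UMIs. Both TKO libraries lay below Ctrl, but they differed from each other by more than TKO 2 differed from Ctrl, and the difference of -1.03 ± 0.52 did not pass (adjusted p = 0.236). With no expression filter it was called as lowered (12.2% of all genes called). By cluster, TKO lay below Ctrl in 1 of 3, that led by Lhx2, Nrp2 and Tgfb2 (47.7 and 56.4 CPM in Ctrl, 4.43 and 23.7 CPM in TKO). The groups overlapped in the cluster led by Lhx2, Tll1 and Shh (25.8 and 37.3 CPM in Ctrl, 7.69 and 30.4 CPM in TKO) and in that led by Plcl1, where TKO 2 was the highest library (27.2 and 19.6 CPM in Ctrl, 8.47 and 36.9 CPM in TKO). In differentiating-like cells it stood at 0.799 and 1.35 CPM in Ctrl and at 3.41 and 3.28 CPM in TKO, and in basal-like cells at 5.15 and 7.27 CPM in Ctrl and at 9.96 and 10.4 CPM in TKO, with adjusted p of 0.128 and 0.0804. The 10 hair follicle markers, all detected, summed to 1148 to 1757 CPM in the hair follicle-like cells of the libraries, and their part in the Hoxc13 levels was not tested.

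**Figure D4:**
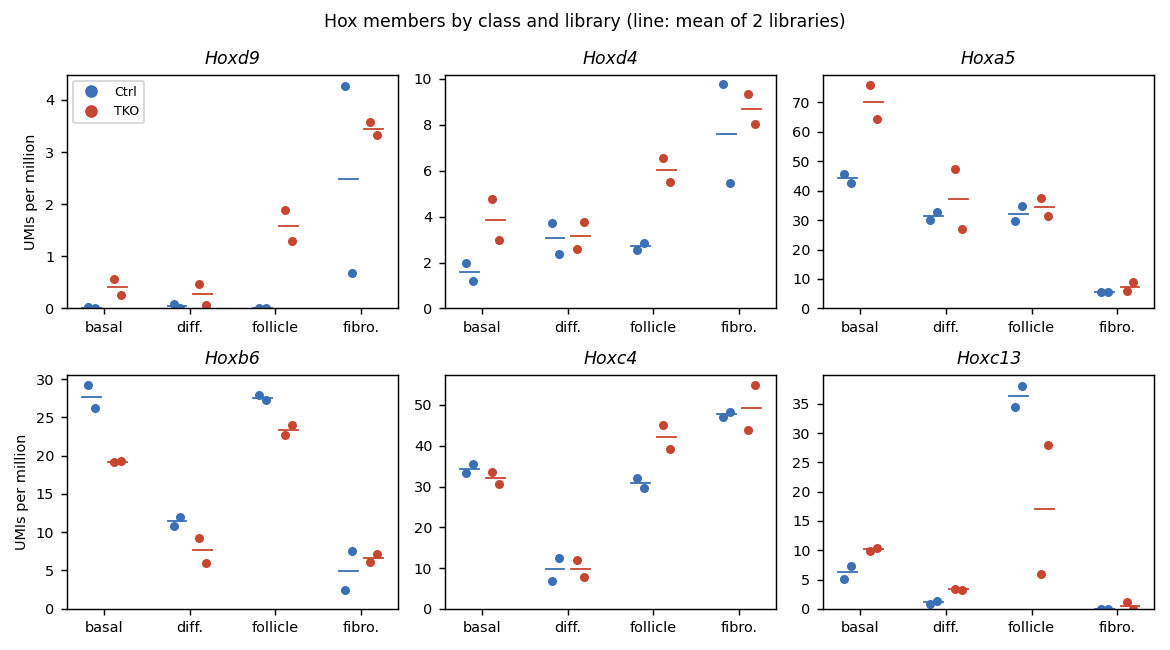
Levels (CPM) of Hoxd9, Hoxd4, Hoxa5, Hoxb6, Hoxc4 and Hoxc13 in each library by class; points are libraries and lines the mean of the 2 libraries of a group. Hoxd9 is at 0 in the hair follicle-like cells of both Ctrl libraries, and the Hoxc13 points of the TKO libraries lie at 5.95 and 28.0 CPM in that class.

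The start regions of Hoxd9, Hoxd4 and Hoxa5 are printed as examples of members called upwards in a keratinocyte class. Hoxc4, called upwards as well, has a window with 1 TAAT that is not shown. For Hoxd9 the first 150 of the 250 bases are shown, since the rest lies in an annotated exon. They are RefSeq sequences upstream of the start on build GRCm38.p6, in the direction of transcription, with TAAT, the core that homeodomains bind, in capitals. Hoxd9 is chr2:74697513-74697662 on the plus strand, Hoxd4 is chr2:74721728-74721977 on the plus strand, and Hoxa5 is chr6:52204588-52204837 on the minus strand. The starts are those of RefSeq, and the Hoxd4 window falls inside the longer GENCODE span of that gene given above.
Hoxd9: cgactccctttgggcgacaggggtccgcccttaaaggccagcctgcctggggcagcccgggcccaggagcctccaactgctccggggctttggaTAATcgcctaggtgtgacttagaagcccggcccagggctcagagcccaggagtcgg
Hoxd4: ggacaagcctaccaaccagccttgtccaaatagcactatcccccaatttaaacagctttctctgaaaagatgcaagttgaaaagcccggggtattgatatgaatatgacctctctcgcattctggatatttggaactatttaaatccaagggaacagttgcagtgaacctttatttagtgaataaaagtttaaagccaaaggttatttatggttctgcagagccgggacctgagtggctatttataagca
Hoxa5: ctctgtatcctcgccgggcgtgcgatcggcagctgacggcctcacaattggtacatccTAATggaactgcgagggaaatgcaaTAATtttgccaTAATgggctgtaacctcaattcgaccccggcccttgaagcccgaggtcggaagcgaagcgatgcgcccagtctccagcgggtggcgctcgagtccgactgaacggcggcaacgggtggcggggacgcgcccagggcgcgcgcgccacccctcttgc
The Hoxa5 window holds 3 TAAT cores, while the Hoxd4 window holds none on either strand and has 1 TATAAA, on the strand opposite to the one printed. All motifs were searched on both strands. Windows of 250 bases before the start were given for 22 members, 24 windows in all. TAAT on either strand was in 18 of these (75.0%, against 54.9% of 32851 windows of all genes), CCAAT in 14 (58.3%, against 33.9%), TATAAA in 4 (16.7%, against 12.4%) and TGATNNAT, a Pbx and Hox motif, in 4 (16.7%, against 7.68%). The median window held 12.5 CG dinucleotides, against 6 over all genes. These matches describe the letters only and are not sites.

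The remaining members tested in keratinocytes were not called. Among paralogs 1 to 3, which pattern the hindbrain and pharyngeal arches, Hoxa2 stood at 5.05 and 5.85 CPM in Ctrl and at 5.46 and 5.70 CPM in TKO. Hoxb1, at 0.190 and 0.244 CPM in Ctrl and 0.326 and 0.129 CPM in TKO, was near the limit of detection. Hoxb2 and Hoxb3 were among the steadiest members. The Hoxb2 levels were 35.3 and 41.3 CPM in Ctrl and 39.5 and 39.9 CPM in TKO. Those of Hoxb3 were 26.5 and 26.5 CPM in Ctrl and 27.7 and 28.6 CPM in TKO.

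Among paralogs 4 to 6, genes of the neck and thorax, Hoxa4 stood at 5.93 and 6.33 CPM in Ctrl and at 6.46 and 6.11 CPM in TKO. Hoxb4, which is known for expanding blood stem cells, was at 23.6 and 25.9 CPM in Ctrl and 24.1 and 23.8 CPM in TKO. Hoxb5 was at 6.29 and 5.97 CPM in Ctrl and 6.98 and 6.12 CPM in TKO. These members overlapped between the groups. Hoxa5 stood at 37.3 and 38.4 CPM in Ctrl and at 63.8 and 47.1 CPM in TKO (adjusted p = 0.0928). Hoxd4 was at 2.65 and 1.87 CPM in Ctrl and 4.75 and 3.82 CPM in TKO (adjusted p = 0.111). Hoxb6 was at 22.7 and 23.3 CPM in Ctrl and 17.9 and 16.7 CPM in TKO (adjusted p = 0.0879). Hoxa6 was low, at 1.58 and 0.890 CPM in Ctrl and 1.42 and 0.627 CPM in TKO. In the Hoxc cluster, Hoxc4 stood at 24.3 and 28.8 CPM in Ctrl and at 32.2 and 26.1 CPM in TKO. Hoxc5 was at 5.71 and 6.95 CPM in Ctrl and 10.5 and 6.84 CPM in TKO, and Hoxc6 at 11.5 and 14.1 CPM in Ctrl and 15.7 and 11.6 CPM in TKO. In these Hoxc members TKO 1 was the highest library and TKO 2 lay between the Ctrl libraries.

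Among paralogs 7 to 9, genes of the thoracic and lumbar trunk, the TKO libraries disagreed. Hoxa7, the highest member in Ctrl keratinocytes, stood at 88.2 and 90.8 CPM in Ctrl and at 91.5 and 48.0 CPM in TKO. Hoxc8 stood at 26.4 and 29.9 CPM in Ctrl and at 35.5 and 19.1 CPM in TKO, so its TKO libraries lay on either side of Ctrl. Hoxb9 did likewise, with 7.85 and 6.25 CPM in Ctrl and 11.9 and 5.11 CPM in TKO. Hoxa9, known from leukaemia and blood progenitors, was at 1.32 and 2.57 CPM in Ctrl and at 6.15 and 2.03 CPM in TKO. Hoxc9 was at 0.777 and 1.13 CPM in Ctrl and at 1.59 and 0.516 CPM in TKO. Hoxd8 was at 9.01 and 5.04 CPM in Ctrl and at 8.16 and 3.73 CPM in TKO, so replicate 1 was high in both groups. Hoxb7 and Hoxb8 had negative fitted differences, and neither was called. Hoxb7 was at 22.4 and 20.4 CPM in Ctrl and 13.1 and 15.8 CPM in TKO (difference -0.58 ± 0.16, adjusted p = 0.0932), and Hoxb8 at 18.9 and 21.4 CPM in Ctrl and 16.7 and 13.9 CPM in TKO (difference -0.41 ± 0.14, adjusted p = 0.146). Past paralog 9, Hoxd11, a gene of forelimb patterning, had 43, 16, 5 and 16 UMIs, and Hoxc13 stood at 9.73 and 13.9 CPM in Ctrl and at 8.30 and 12.5 CPM in TKO.

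For 23 reported members with a mean of at least 40 UMIs per library in keratinocytes, the level in TKO 1 divided by that in TKO 2 ran from 0.665 to 3.08, and 8 members were above 1.5. The same ratio of Ctrl 1 to Ctrl 2 ran from 0.514 to 1.79, with 2 above 1.5. In TKO the ratio was 0.958 to 1.32 for paralogs 1 to 4 (8 members, median 1.03), 1.07 to 2.26 for paralogs 5 and 6 (6 members, median 1.35) and 0.832 to 3.08 for paralogs 7 to 9 (8 members, median 2.05, 6 above 1.5), and 0.665 for Hoxc13, the single member past paralog 9. Within paralogs 7 to 9, Hoxb7 (0.832) and Hoxb8 (1.20) were not above 1.5. In Ctrl the medians of the first 3 blocks were 0.888, 0.972 and 0.928. No test was run on these ratios. The widest TKO ratios belonged to Hoxc9 (3.08) and Hoxa9 (3.03). These are single libraries of 1 embryo each, so the ratio has no replicate of its own. It describes the spread that the test of paralogs 7 to 9 between genotypes had to pass.

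**Figure D5:**
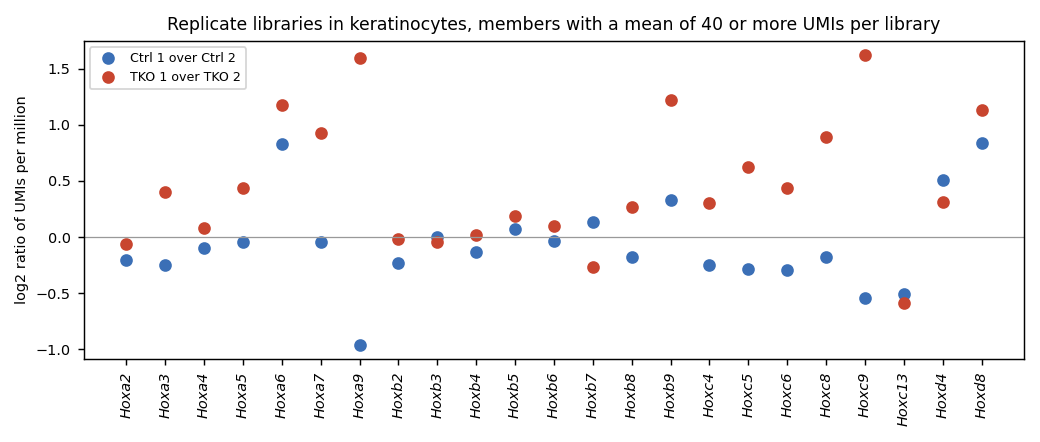
Log2 ratio of the level in replicate 1 to that in replicate 2, in keratinocytes, for Ctrl (blue) and TKO (red) and members with a mean of at least 40 UMIs per library. The TKO points of Hoxa9, Hoxb9 and Hoxc9 lie above 1, whereas those of the Hoxb2, Hoxb3 and Hoxb4 genes lie near 0.

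Of the other 12 members, 7 had 2 to 19 UMIs in all keratinocytes and were not tested (Hoxa10, Hoxc10, Hoxc11, Hoxc12, Hoxd1, Hoxd3 and Hoxd10) and 5 had none. Hoxd10, a gene of limb motor neurons, had 12, 3, 0 and 3 UMIs, and Hoxd3 had 5, 4, 7 and 3. No library had over 4 keratinocyte UMIs of Hoxa10, Hoxc10, Hoxc11 or Hoxc12. In fibroblast-like cells 31 members had a UMI, and none of the 17 tested was called (0.0174% of all genes). The lowest unadjusted p was that of Hoxc6, at 42.1 and 34.7 CPM in Ctrl and 27.8 and 26.1 CPM in TKO (difference -0.54 ± 0.22, adjusted p = 1).

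The partners and regulators of Hox proteins changed in few places. Of 9 TALE cofactors, Pbx4 was the single one called in keratinocytes, at 1.55 and 2.01 CPM in Ctrl and 4.81 and 6.55 CPM in TKO (difference 1.67, adjusted p = 0.0301), where 6.75% of all genes were called. It was raised in basal-like and hair follicle-like cells too (12.7 and 13.6% of all genes called). Meis2 was raised in hair follicle-like cells, where it stood at 58.3 and 65.4 CPM in Ctrl and 159 and 119 CPM in TKO (difference 1.21). The low-level Pknox2 had 1.25 and 1.45 CPM in Ctrl keratinocytes and 0.594 and 0.203 CPM in TKO, and missed the threshold (adjusted p = 0.0950).

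None of 15 Polycomb and 9 Trithorax genes was called in keratinocytes, basal-like or differentiating-like cells, where 6.75, 12.7 and 1.33% of all genes were called. In hair follicle-like cells, where 13.6% of all genes were called, Ezh1, a methyltransferase of Polycomb complex PRC2, was lowered by 0.62 on the log2 scale. Of 17 noncoding genes in the clusters, 8 were tested in keratinocytes and none was called (6.75% of all genes). Halr1, a long noncoding RNA of the Hoxa cluster, had 21.4 and 18.5 CPM in Ctrl and 8.87 and 11.9 CPM in TKO keratinocytes (adjusted p = 0.0551). In hair follicle-like cells it was lowered by 1.36, as 1 of 8 noncoding genes tested (13.6% of all genes called). Hoxb3os, antisense to Hoxb3, was lowered in basal-like cells, as 1 of 7 noncoding genes tested (12.7% of all genes called). It went from 64.8 and 66.2 CPM in Ctrl to 44.4 and 47.1 CPM in TKO, while Hoxb3 itself stood at 33.9 and 30.7 CPM in Ctrl and at 31.0 and 33.5 CPM in TKO. Haglr, a noncoding RNA of the Hoxd cluster, had 18, 14, 55 and 22 UMIs in keratinocytes and was not called (adjusted p = 0.163).

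Of 14 genes flanking the clusters, 9 were tested in keratinocytes and none was called (6.75% of all genes). In basal-like cells 1 of 9 tested was raised and 1 lowered, where 12.7% of all genes were called. In hair follicle-like cells 1 of 8 tested was raised and 2 were lowered, where 13.6% of all genes were called. Mtx2, a mitochondrial import gene beside Hoxd, was raised in basal-like cells (107 and 112 CPM in Ctrl, 162 and 163 CPM in TKO, difference 0.57) and in hair follicle-like cells (difference 0.50). Calcoco1, beside Hoxc, was lowered by 0.57 in basal-like and by 0.49 in hair follicle-like cells, and Hibadh, beside Hoxa, by 0.47 in hair follicle-like cells. Of the 6 upstream regulators (Cdx, retinoic acid receptor genes and Gdf11), at most 3 were tested in a class and none was called, too few to set against the share of all genes. In fibroblast-like cells no gene of these lists was called.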

How the data were processed

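UMI counts per gene and cell were used from 2 Ctrl and 2 TKO libraries. The authors sorted cells, prepared 3' libraries and deposited filtered matrices of raw counts, aligned to GRCm39 with Cell Ranger (7.1.0 per the file headers, whereas the methods name another version). The gene annotation, and whether intronic reads counted, are not given in the sources used here. The labels give E16.5, whereas a list of litters in the study gives an earlier day.

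Cells with at least 2000 genes and under 10% mitochondrial UMIs were kept. Doublets were scored with Scrublet (scanpy 1.11.5) and the top 0.8% per 1000 barcodes, 457 cells, were removed, because its own threshold marked 4 and 9 Ctrl cells. Libraries shared 2 to 12 barcodes per pair, 0 to 3 among cells used. Cells were aligned by an own implementation of Harmony and clustered with Leiden, keratinocytes again without Hox genes and the 1347 genes that differed. Clusters were named from markers.

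Counts summed per class and library were tested with edgeR 4.0.16 (R 4.3.3; TMM, default expression filter, genotype as the only term, library as a block in tests between classes), tested on simulated data, with Benjamini-Hochberg adjustment. DESeq2 1.42.0 and other cell filters were alternatives. Members, lists and tests were chosen with earlier results of these data known. Values in every library are given for members past the filter in keratinocytes, called in any class, or near 0 in Ctrl and present in both TKO libraries. Another gene overlaps 29 of the 39 members, and for 15 an overlap lies on their own strand; whether counting used strand was not stated. Sequences came from RefSeq. The values of a few genes are not reported here. Shares at 5000 UMIs left out shallower cells, 23 and 38 Ctrl and 4 and 7 TKO keratinocytes.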

Additional observations from a re-analysis of the deposited data

Results flagged for a closer look

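These results were picked out because a test of the difference itself, the genotype by class interaction in edgeR's quasi-likelihood test, passed at an adjusted p under 0.05. Hoxc4 had a log2 difference between genotypes that was 0.631 higher in hair follicle-like than in basal-like cells (adjusted p = 0.0269). That call was lost in 6 of 7 alternative settings (adjusted p up to 0.260) and without Ctrl 1 or Ctrl 2. For Meis2, a TALE cofactor, that value was 1.055 (adjusted p = 0.00166), with 58.3 and 65.4 CPM in Ctrl and 159 and 119 CPM in TKO in hair follicle-like cells, against 155 and 162 CPM in Ctrl and 194 and 166 CPM in TKO in basal-like cells. Hoxb3os, the RNA antisense to Hoxb3, had a value of 0.557 (adjusted p = 0.0208), being lowered in basal-like cells and standing at 46.1 and 45.5 CPM in Ctrl and 45.0 and 44.2 CPM in TKO in hair follicle-like cells.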

How the results depend on the processing

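No result changed direction under an alternative after having been called. Each count of members below is followed by the percent of all genes called in the same fit. With DESeq2, 5 members were called in keratinocytes (13.3%), against 1 in the main test (6.75%). With no expression filter, 9 were called in basal-like (12.8%), 5 in differentiating-like (6.98%) and 5 in hair follicle-like cells (12.2%), and 4 each in the tests of differentiating-like (3.53%) and of hair follicle-like against basal-like cells (4.52%). With doublets kept, 4 were called in basal-like (14.9%) and 1 in hair follicle-like cells (8.34%). Thinning to 5000 UMIs gave 1 in hair follicle-like cells (7.73%) and 2, Hoxa5 and Hoxc13, in the test of hair follicle-like against basal-like cells (2.32%). Leiden resolution 0.5 gave 1 (8.29%) and 2, Hoxa5 and Hoxb2 (5.08%). At least 3000 genes per cell (4.35%) or no library block (0.178%) gave 0 in the test between these classes. Leaving out each library in turn gave 0 to 4 in keratinocytes (0.0335 to 10.6%), 0 to 6 in basal-like (2.68 to 17.6%), 0 to 2 in differentiating-like (0.824 to 4.10%), 1 to 5 in hair follicle-like cells (6.07 to 15.2%) and 0 to 4 in the test of hair follicle-like against basal-like cells (0.423 to 7.34%). In keratinocytes the genes called in all ran from 7 without Ctrl 2 to 2244 without TKO 2. Counts in fibroblast-like cells and in the test of fibroblast-like cells against keratinocytes were 0 in every setting run. The cause of these shifts was not tested.

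Replicate numbers are shared by the groups, but nothing says that they pair embryos, and same-numbered libraries correlated at -0.26 in keratinocytes and at -0.02 to -0.30 in the other classes. With replicate number as a block, 1 member was called in keratinocytes (4.59%), 2 in basal-like (10.2%), 0 in differentiating-like (0.922%) and 4 in hair follicle-like cells (14.4%). The 2 were Hoxa5 and Hoxd4, while Hoxb6 was lost at an adjusted p of 0.0828. The 4 were Hoxd9, Hoxd4 and Hoxc4, raised, and Hoxc13, lowered. A crossed pairing, chosen after seeing the data, called 6 (17.4%), 4 (17.1%), 1 (9.50%) and 3 (17.8%).

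Depth limits Hoxd9 and the fibroblast-like class: the latter had 1467835 to 3633322 UMIs per library, and a member at 1 CPM then has few molecules. With 2 embryos per group, p-values measure the spread between these embryos only.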
